A study of Mus musculus with 7 samples.

Results

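Cytosolic ribosomal protein genes were described across 7 RNA-seq libraries of 3T3-L1, a mouse line derived from embryonic fibroblasts that forms fat cells when given hormonal inducers. Members were the protein-coding entries whose symbol starts with Rpl or Rps and whose NCBI description starts with ribosomal protein, without the S6 kinases (Rps6k). The rule took 86 of the 23996 genes in the tables, 53 of them Rpl entries (3 of these encode the stalk proteins Rplp0, Rplp1 and Rplp2) and 33 Rps entries. The rule used names and no measured value.

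The cells were kept in 7 conditions with 1 library each. Preconfluent cells, labelled Pro with no time given, received conditioned medium (Pro-CM) or MDI (Pro-MDI). The 0h control was taken at confluence before differentiation, and confluent cells were taken 4 h and 24 h after CM (4h CM and 24h CM) or MDI (4h MDI and 24h MDI). MDI holds IBMX, an inhibitor of cyclic nucleotide breakdown, with dexamethasone, a synthetic glucocorticoid, and insulin. CM was MDI medium recovered after 48 h on differentiating 3T3-L1 cells, so all 6 treated libraries had met the inducers, and the series has the stated aim of finding a factor that matters in 3T3-L1 differentiation. No condition was replicated, and no library was taken at 4 h or 24 h without inducers, so the inducers, the change of medium and the passing of time cannot be told apart in any comparison with 0h. In Pro against 0h, cell density and treatment cannot be told apart either.

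The cytosolic ribosome is built from a small subunit, which holds the mRNA and the decoding centre, and a large subunit, which forms the peptide bond. A stalk on the large subunit, made of Rplp0, Rplp1 and Rplp2, recruits the translation factors that use GTP. The mRNAs of these proteins are among the most abundant in growing cells, and in mammals they begin with a terminal oligopyrimidine (TOP) motif, a C followed by a run of pyrimidines, through which mTORC1, a kinase complex switched on by insulin and amino acids, controls their translation. That control acts on ribosome loading, which RNA levels do not show.

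Values are FPKM (fragments per kilobase of transcript, scaled for library size), which allow levels of different genes to be compared per length. They carry no read totals, so the depth of the libraries is unknown. FPKM sums over all features ran between 558532 in the 0h control and 714427 in 4h MDI, and 10530 to 11101 genes reached an FPKM of 1 in a library. The labels call the cells adipocyte. Of 5 adipocyte markers, Fabp4 (27.9 to 108 FPKM) and Lpl (23.7 to 339 FPKM) were above 1 FPKM in every library and Plin1 in 24h CM alone (3.75 FPKM), while Adipoq and Cfd, secreted by mature fat cells, stayed under 1 FPKM throughout. All 7 fibroblast or preadipocyte markers were at or above 1 FPKM in each library. Among markers of other cell types, Myod1, Myog and Epcam were at 0 throughout, Acta1 of muscle reached 1.11 FPKM and Cd68 of macrophages 2.27 FPKM at most, and the other leukocyte, endothelial, muscle and epithelial markers stayed under 1 FPKM.

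Of the 86 members, 81 had an FPKM of at least 1 in all 7 libraries. Their mean FPKM over the 7 libraries had a median of 1775, an interquartile range of 1113 to 3116 and extremes of 17.1 (Rpl30) and 6475 (Rplp1). In all, 62 members averaged at least 1000 FPKM, 15 lay between 100 and 1000 FPKM and 9 were under 100 FPKM. Members made up 22 of the 30 and 33 of the 50 genes with the highest mean FPKM.

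The top of the range was held by Rplp1, a stalk protein, with 5786 and 5924 FPKM in the Pro-CM and Pro-MDI libraries, 4900.1 FPKM at 0h, 6385 and 6206 FPKM in 4h CM and 4h MDI, and 7253 and 8872 FPKM in 24h CM and 24h MDI. It was highest in 24h MDI and lowest at 0h. Rps12, a small-subunit protein, followed with 6075 and 6449.9 FPKM in the Pro-CM and Pro-MDI libraries, 5159 FPKM at 0h, 6651 and 6211 FPKM in 4h CM and 4h MDI, and 6223 and 7673 FPKM in 24h CM and 24h MDI. Rps20, a protein of the small-subunit head, had 4678 and 5344 FPKM in the Pro-CM and Pro-MDI libraries, 5116 FPKM at 0h, 6468 and 5569 FPKM in 4h CM and 4h MDI, and 7332 and 8282 FPKM in 24h CM and 24h MDI, again highest in 24h MDI. Rpl41, the smallest protein of the large subunit, had 5369 and 5595 FPKM in the Pro-CM and Pro-MDI libraries, 4072 FPKM at 0h, 5923 and 5175 FPKM in 4h CM and 4h MDI, and 7010.0 and 8855 FPKM in 24h CM and 24h MDI. Rps28, a small protein near the mRNA exit, was the exception among the 5 most abundant members: it had 3963 and 4372 FPKM in the Pro-CM and Pro-MDI libraries, 5586 FPKM at 0h, 6409 and 5902 FPKM in 4h CM and 4h MDI, and 5749 and 5945 FPKM in 24h CM and 24h MDI, so that both Pro libraries were below 0h and 4h CM was the highest.

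The bottom of the range held specialised paralogs and entries whose estimates are uncertain. Rpl10l and Rpl39l, paralogs of Rpl10 and Rpl39 known from the male germ line, were listed at 0 in all 7 libraries, while their widely expressed partners were abundant (Rpl10 averaged 2713 FPKM and Rpl39 averaged 4204 FPKM). Rpl3l, the paralog of Rpl3 known from heart and skeletal muscle, was at or under 0.0356 FPKM in every library, and the pseudogene-named entry Rpl31-ps12 at or under 0.554 FPKM. Rpl26, a core large-subunit protein, had 2.27 and 0 FPKM in the Pro-CM and Pro-MDI libraries, 0 FPKM at 0h, 3.12 and 2.77 FPKM in 4h CM and 4h MDI, and 0 and 11.9 FPKM in 24h CM and 24h MDI. A 0 in these tables can be a failed estimate, so no fold is given for Rpl26. Rpl30, another core large-subunit protein, had 19.97 and 20.6 FPKM in the Pro-CM and Pro-MDI libraries, 11.3 FPKM at 0h, 14.8 and 19.2 FPKM in 4h CM and 4h MDI, and 15.03 and 18.5 FPKM in 24h CM and 24h MDI. The genome holds processed copies of many ribosomal protein genes, and reads shared with them may have been split or dropped by the authors' counting, so the levels of Rpl26, Rpl30 and the merged entries below are uncertain.

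Other entries met the rule but are not separate ribosomal proteins. Rps19bp1 encodes a protein that binds Rps19, and averaged 24.5 FPKM. The entries Rpl34-ps1 and Rpl34,Rpl34-ps1 have the same locus (chr3:130726827-130730398), and Rps27,Rps27rt shares its locus (chr3:90212667-90213648) with Rps27rt, an entry outside the rule. Rpl23 and Fau, which encode or carry a cytosolic ribosomal protein, also fell outside the rule by their description or symbol. Their FPKM ranges were 818 to 1159 for Rpl23 and 1882 to 3311 for Fau (a ubiquitin-like protein fused to a small-subunit protein).

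Taken as a whole, ribosomal protein genes held between 25.9% and 35.5% of the summed FPKM of protein-coding genes. The share was 27.3% in Pro-CM, 29.3% in Pro-MDI and 28.9% at 0h. At 4h it was 29.4% in CM and 25.9% in MDI, and at 24h 33.7% in CM and 35.5% in MDI. Both 24h libraries were thus above the other 5, and 4h MDI was the lowest. The share does not depend on scaling between libraries, but in bulk RNA a larger amount per cell and a change in the kinds of cells present cannot be told apart. On the FPKM scale, the sum over members was 1.07-fold and 1.14-fold the 0h value in Pro-CM and Pro-MDI, 1.26-fold and 1.15-fold in 4h CM and 4h MDI, and 1.33-fold and 1.53-fold in 24h CM and 24h MDI.

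The subunits kept nearly the same proportion. The large subunit without the stalk summed to between 1.05 and 1.11 times the small subunit in every library. In 24h MDI the small-subunit sum was 1.5-fold, the large-subunit sum 1.51-fold and the stalk sum 1.85-fold the 0h value. In 24h CM these were 1.31-fold, 1.32-fold and 1.59-fold. The stalk sum rests on 3 genes, of which Rplp1 and Rplp2 hold most.

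**Figure D1:**
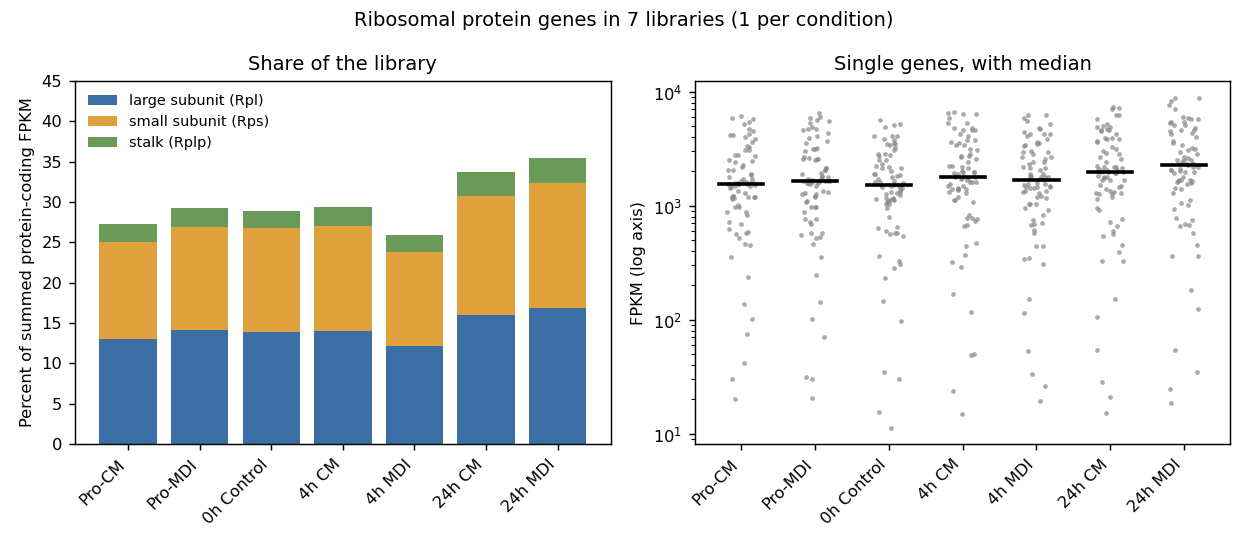
Left: stacked bars of the percent of summed protein-coding FPKM held by large-subunit, small-subunit and stalk genes in each of the 7 libraries (Rps19bp1 is not drawn). Right: FPKM of the 81 members at or above 1 FPKM in all libraries on a log axis, with the median as a bar. The 2 libraries at 24h have the tallest bars (33.7% and 35.5%) and the highest medians (1978 FPKM in 24h CM and 2262 FPKM in 24h MDI), while 4h MDI has the lowest share at 25.9%.

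The first comparison asked what differed at 24h. Ribosomal protein genes as a group were higher at 24h than at 0h in both media, more so in MDI than in CM. Rpl26 apart, the members past 2-fold in 24h MDI were Rps2, Rpl37a, Rpl36al, Rpl41, Rpl8 and Rplp2. Their share was near that of all genes, and in 24h CM only Rpl37a passed, as given below. Differences between pairs of libraries are given as log2(FPKM + 1) of the first minus the second, over genes that reached 1 FPKM in either library, with no test. In 24h MDI against 0h the median member differed by 0.61 (interquartile range 0.39 to 0.74), against -0.02 for all 11404 genes and 0.46 for the 956 genes with at least 100 FPKM in either library. In 24h CM against 0h it was 0.38, against 0.00 for all genes and 0.36 for the 941 genes with at least 100 FPKM. The median of the 75 mitochondrial ribosomal protein genes lay at 0.57 for 24h MDI minus 0h and 0.50 for 24h CM minus 0h. It was thus slightly under that of members in MDI and above it in CM, so the rise was not confined to cytosolic ribosomal proteins. Of 82 members compared, 80 were above 0 in 24h MDI, against a background of 48.6% of all genes. In 24h CM, 77 of 81 were above 0, against a background of 50.1%. The direction held when FPKM were rescaled to TPM, with medians of 0.30 in MDI and 0.20 in CM. That rescaling moved the median of all genes to -0.32 and -0.19, and genes with at least 100 TPM had medians of -0.02 and 0.08.

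A difference of at least 2-fold (1 on the log2 scale) was reached upwards by 7 of 82 members in 24h MDI against 0h, where 8.92% of all genes did. They were Rps2, Rpl37a, Rpl36al, Rpl8, Rpl41, Rplp2 and Rpl26 (listed at 0 at 0h), and only 2 of the 82 reached it after rescaling to TPM. In 24h CM against 0h only Rpl37a did, where 8.21% of all genes did. None was 2-fold lower, against 11% of all genes in MDI and 9.98% in CM. A smaller difference, of at least 0.5 in either direction, was reached by 51 of 82 members in 24h MDI against 0h, all of them higher, where 47.2% of all genes reached it (2509 higher and 2875 lower). In 24h CM against 0h it was reached by 29 of 81 members, 28 of them higher, where 44.1% of all genes reached it (2445 higher and 2587 lower).

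Tests across libraries used limma on log2(FPKM + 1) with stage and medium as terms, fitted on all genes with Benjamini-Hochberg adjustment at 0.05. Its residual, with 2 degrees of freedom, is made of library noise and of any interaction of stage with medium, so its p-values say nothing of the spread between cultures. For 24h minus 0h it called 4 of 82 members higher, against 5.42% of the 11263 genes tested, and none lower, against 5.55%. Members reached by the call rule were therefore no more frequent than genes at large. Without adjustment, 35 of 82 members (42.7%) had a limma p under 0.05, all upwards, against 32.1% of all genes in either direction. For 24h minus 4h and Pro minus 0h these shares were 18.3% and 13.4% of members, against 43.1% and 44% of all genes. The 4 members called were Rpl37a, Rpl36al, Rps2 and Rpl22l1, and none of them passed when the Pro libraries were left out of the fit. That fit has fewer residual degrees of freedom. The share of all genes it called is not given here, so the loss is not read as a result about these members. Over 10 alternatives, Rpl37a and Rpl36al passed in 8, Rps2 in 6 and Rpl22l1 in 4.

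Rpl37a, a zinc-binding protein of the large subunit (chr1:72711260-72713813), rose most clearly at 24h. It had 1193 and 1188 FPKM in the Pro-CM and Pro-MDI libraries, 1327 FPKM at 0h, 1935 and 1695 FPKM in 4h CM and 4h MDI, and 3116 and 3158 FPKM in 24h CM and 24h MDI. Both 24h libraries stood far above the other 5, which lay between 1188 and 1935 FPKM, and the 2 media were alike at 24h. The change was 1.24 ± 0.18 (log2, SE) for 24h minus 0h, with an adjusted p of 0.0261 in limma. For 24h minus 4h it was 0.79 ± 0.14, with a limma adjusted p of 0.0301 (range over alternatives 0.0242 to 0.0884). Over the alternatives tried, the adjusted p of the 24h minus 0h change ran between 0.0223 and 0.0627.

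Rps2, a small-subunit protein at the mRNA entry (chr17:24720063-24721927), had 5902 and 5941 FPKM in the Pro-CM and Pro-MDI libraries, 2191 FPKM at 0h, 3056 and 2848 FPKM in 4h CM and 4h MDI, and 4276 and 5816 FPKM in 24h CM and 24h MDI. Its level was lowest at 0h, little higher at 4h, and high both in 24h MDI and in the 2 Pro libraries. The limma change for 24h minus 0h was 1.19 ± 0.23 (adjusted p 0.0447, range over alternatives 0.0369 to 0.133). Rpl22l1, the paralog of the large-subunit protein Rpl22, had 236 and 247 FPKM in the Pro-CM and Pro-MDI libraries, 230.0 FPKM at 0h, 319.6 and 308 FPKM in 4h CM and 4h MDI, and 388 and 450.0 FPKM in 24h CM and 24h MDI, and rose by 0.86 ± 0.17 at 24h against 0h (limma adjusted p 0.0475, range 0.0380 to 0.0877). Rpl22 itself, which in mouse is known to repress Rpl22l1, had 153 and 182 FPKM in 24h CM and 24h MDI, against 144 FPKM at 0h, and did not pass the test. The share of Rpl22l1 in the summed FPKM of the pair was 63.5% and 63.5% in Pro-CM and Pro-MDI, 61.4% at 0h, 65.6% and 67.2% in 4h CM and 4h MDI, and 71.8% and 71.2% in 24h CM and 24h MDI, highest in the 24h libraries.

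Among members that stayed outside the limma threshold at 24h, Rplp2 of the stalk (chr7:141447650-141451342) had 4190.5 and 4700.2 FPKM in the Pro-CM and Pro-MDI libraries, 3483 FPKM at 0h, 4565 and 4072 FPKM in 4h CM and 4h MDI, and 6263 and 6992 FPKM in 24h CM and 24h MDI, with an estimate of 0.93 ± 0.20 for 24h minus 0h (limma adjusted p 0.0532). Rpl8, a core large-subunit protein, had 1844 and 2046 FPKM in the Pro-CM and Pro-MDI libraries, 1163 FPKM at 0h, 1620.3 and 1459 FPKM in 4h CM and 4h MDI, and 2043 and 2638 FPKM in 24h CM and 24h MDI, with 1.00 ± 0.22 (limma adjusted p 0.0550). For Rpl41 the estimate was 0.95 ± 0.23 in the same contrast (limma adjusted p 0.0637). All 3 were highest in 24h MDI and lowest at 0h.

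Members with known roles outside the ribosome's core, Rpl5 apart, lay near the median of the group in 24h MDI against 0h. Rps6, the substrate of the S6 kinases, had 724 and 770.1 FPKM in the Pro-CM and Pro-MDI libraries, 638 FPKM at 0h, 825 and 749 FPKM in 4h CM and 4h MDI, and 921 and 1003 FPKM in 24h CM and 24h MDI. Rpl11 and Rpl5, which bind Mdm2 and so link ribosome supply to p53, had 2051 and 2314 FPKM (Rpl11) and 596 and 693 FPKM (Rpl5) in 24h CM and 24h MDI, against 1413 and 576 FPKM at 0h. Rpl5 was thus nearly level while Rpl11 was higher in both media. Rps19, mutated in human Diamond-Blackfan anaemia, had 2074 and 2498 FPKM in 24h CM and 24h MDI, against 1549 FPKM at 0h. Rpsa, also known as a laminin receptor, had 1537 and 1628 FPKM in the Pro-CM and Pro-MDI libraries, 1034 FPKM at 0h, 1409 and 1335 FPKM in 4h CM and 4h MDI, and 1298 and 1642 FPKM in 24h CM and 24h MDI. Rps27a, a ubiquitin fusion protein, had 2010 and 2262 FPKM in 24h CM and 24h MDI, against 1460 FPKM at 0h.

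Several members differed little from 0h or lay below it. Rps28 had 5749 and 5945 FPKM in 24h CM and 24h MDI, against 5586 FPKM at 0h. Rpl10, which joins the large subunit late in its assembly, had 2678 and 3173 FPKM in 24h CM and 24h MDI, against 2732 FPKM at 0h. Rpl17 had 1529 and 1691 FPKM in 24h CM and 24h MDI, against 1518 FPKM at 0h.

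The next comparison set 24h against 4h within each medium. In MDI the median member was higher by 0.39 at 24h than at 4h, against -0.01 for all genes, with 76 of 82 above 0 (49.7% of all genes). In CM the median was 0.06, against -0.01 for all genes, with 51 of 82 above 0 (49% of all genes). After rescaling to TPM the medians were 0.44 and 0.16, with all genes at 0.04 and 0.08. In FPKM, the mitochondrial ribosomal protein genes stood further up than members in both media here. Their median was 0.48 for 24h MDI minus 4h MDI and 0.29 for 24h CM minus 4h CM. At least 2-fold higher in MDI were Rps2 and Rpl26, 2 of 82, where 12.1% of all genes were. In CM only Rpl26, listed at 0 in 24h CM, passed 2-fold, downwards, where 7.24% of all genes did, and none was 2-fold higher, against 6.49%. A difference of at least 0.5 was reached by 28 of 82 members in MDI, 27 of them higher, where 56.1% of all genes reached it in either direction, and by 4 of 82 in CM, where 38.9% did. limma called 2 of 82 members higher for 24h minus 4h, against 10.9% of all genes, and none lower, against 10.4%. One was Rpl37a, given above. The other was Rpl7a, a large-subunit protein, with 1615 and 1777 FPKM in the Pro-CM and Pro-MDI libraries, 1129.9 FPKM at 0h, 1390.0 and 1300.3 FPKM in 4h CM and 4h MDI, and 1984 and 2079.9 FPKM in 24h CM and 24h MDI and a change of 0.60 ± 0.14 (limma adjusted p 0.0487, range over alternatives 0.0408 to 0.119). Without the Pro libraries in the fit no member was called in this contrast. The share of all genes called in that smaller fit is not given here, so this is not read as a result about members.

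The order of members in the 24h minus 4h difference was similar in the 2 media, which share no library here. Across the 81 members with an FPKM of at least 1 throughout, Pearson's r was 0.74 and Spearman's rho 0.81. Genes are not independent replicates, and they share gene length, abundance and each library's scaling, so no p is given. Rps2, Rpl37a, Rplp2 and Rpl7a were high in both media. The merged entry Rps27,Rps27rt and the entry Rpl34,Rpl34-ps1 lay apart from the others.

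**Figure D2:**
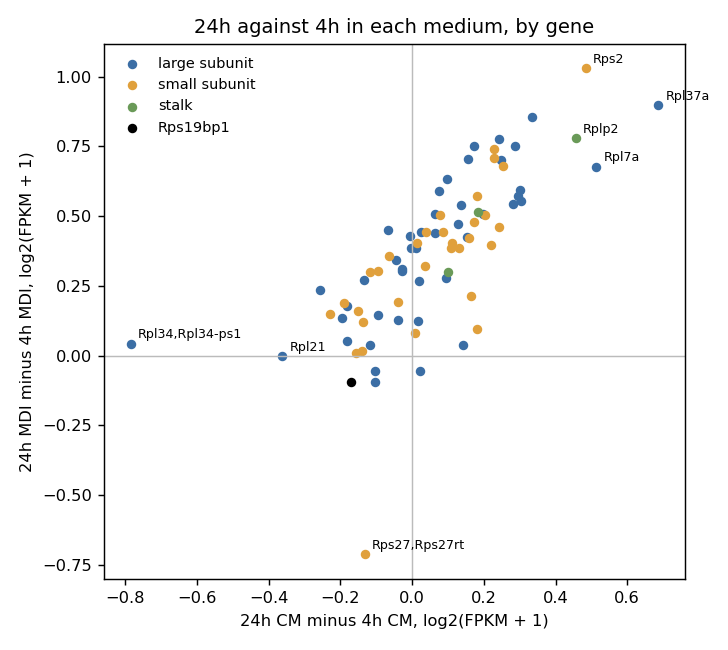
Each point is a member, placed by its difference between 24h CM and 4h CM (x axis) and between 24h MDI and 4h MDI (y axis) in log2(FPKM + 1), coloured by subunit. Most points lie above 0 in MDI and spread around 0 in CM, along a common slope (r 0.74, 81 members), with Rps2, Rpl37a, Rplp2 and Rpl7a at the upper right and Rps27,Rps27rt alone at the bottom.

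At 4h against 0h, the direction of the group depended on the scaling in MDI and not in CM. In FPKM, the median member was higher by 0.34 in 4h CM and by 0.22 in 4h MDI, against -0.04 and -0.06 for all genes. Above 0 were 79 of 82 in CM (48.1% of all genes) and 75 of 82 in MDI (47.6% of all genes). Genes with at least 100 FPKM had medians of 0.35 in 4h CM and 0.46 in 4h MDI, which became -0.02 and -0.0092 in TPM for those with at least 100 TPM. Rescaled to TPM, the medians of members became 0.05 in CM and -0.13 in MDI, as all genes moved to -0.32 and -0.41. Only Rpl26 passed 2-fold upwards in either medium, 1 of 82, where 9.53% of all genes did in CM and 13.5% in MDI. None passed it downwards, against 9.35% in CM and 14.1% in MDI. A difference of at least 0.5 was reached by 14 of 82 members in CM and 6 of 82 in MDI, where 48.3% and 57.9% of all genes reached it in either direction.

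For 4h minus 0h limma called 0 of 82 members higher or lower, against 9.05% and 7.61% of all genes, and 7 members (8.54%) had an unadjusted p under 0.05, all upwards, where 39.4% of all genes did in either direction. The smallest adjusted p in limma, 0.0511, belonged to Rpl7l1. It had 48.8 and 53.1 FPKM in 4h CM and 4h MDI, against 30.2 FPKM at 0h. A few core members were lower in 4h MDI than at 0h: Rpl3, of the peptidyl transferase region, had 1298 and 1026 FPKM in 4h CM and 4h MDI, against 1240.4 FPKM at 0h. Rpl24 had 1074 and 923 FPKM in 4h CM and 4h MDI, against 1039.7 FPKM at 0h. Rpl4 had 1771 and 1467 FPKM in 4h CM and 4h MDI, against 1638 FPKM at 0h. For each of these 3 genes, 4h MDI was the lowest of the 7 libraries.

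In preconfluent cells against 0h, the direction of the group depended on the scaling. Members passed 2-fold or the limma threshold less often than genes at large. The FPKM medians were 0.06 for Pro-CM minus 0h and 0.15 for Pro-MDI minus 0h, against -0.03 and -0.04 for all genes, and they changed sign to -0.11 and -0.01 after rescaling to TPM. Above 0 were 53 of 82 members in Pro-CM (48.8% of all genes) and 60 of 81 in Pro-MDI (47.8% of all genes). Genes with at least 100 FPKM had medians of 0.39 and 0.37 (in TPM, 0.16 and 0.12 for those with at least 100 TPM), and the 75 mitochondrial ribosomal protein genes 0.47 and 0.63. At least 2-fold higher in Pro-CM were Rps2, Rpl36al, Rpl7l1 and Rpl26, 4 of 82, where 14.2% of all genes were. In Pro-MDI they were Rps2, Rpl36al and Rpl7l1, 3 of 81, where 12.3% were. The merged entry Rps27,Rps27rt was the 1 member at least 2-fold lower in Pro-MDI, where 13.4% of all genes were, and none was in Pro-CM, where 15.7% were. A difference of at least 0.5 was reached by 12 of 82 members in Pro-CM and 13 of 81 in Pro-MDI, where 58.2% and 54.6% of all genes reached it.

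For Pro minus 0h limma called 6 of 82 members higher, against 14% of the 11263 genes tested, and none lower, against 13.1%. They were Rpl7l1, Rpl36al, Rps2, Rps19bp1, Rps27l and Rpl30. Rpl7l1, Rpl36al and Rps2 were also called without the 24h libraries, and Rps19bp1, Rps27l and Rpl30 were not. That fit has fewer residual degrees of freedom, and the share of all genes it called is not given here. Rpl7l1 and Rpl36al passed in 10 of 10 alternatives, Rps2 and Rps19bp1 in 9, and Rps27l and Rpl30 in 6. The alternatives include the looser threshold of 0.1, which a called member passes in any case.

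Rpl36al, a paralog of Rpl36a (chr12:69182734-69184067), had 627 and 688 FPKM in the Pro-CM and Pro-MDI libraries, 284 FPKM at 0h, 446 and 442 FPKM in 4h CM and 4h MDI, and 547 and 658 FPKM in 24h CM and 24h MDI. The 2 Pro libraries and 24h MDI were highest and 0h was lowest. It rose by 1.21 ± 0.18 for Pro minus 0h (limma adjusted p 0.0148) and by 1.08 ± 0.18 for 24h minus 0h (limma adjusted p 0.0326, range over alternatives 0.0273 to 0.0523). Its partner Rpl36a had 1562 and 1683 FPKM in the Pro-CM and Pro-MDI libraries, 1369 FPKM at 0h, 1808 and 1688 FPKM in 4h CM and 4h MDI, and 1978 and 2341 FPKM in 24h CM and 24h MDI. The share of Rpl36al in the sum of the pair was 28.6% and 29.01% in Pro-CM and Pro-MDI, 17.2% at 0h, 19.8% and 20.8% in 4h CM and 4h MDI, and 21.7% and 21.95% in 24h CM and 24h MDI, so the Pro libraries held the largest share and 0h the smallest.

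Rpl7l1, a paralog of Rpl7 whose yeast relative acts in large-subunit assembly (chr17:46773907-46782656), had 74.1 and 70.9 FPKM in the Pro-CM and Pro-MDI libraries, 30.2 FPKM at 0h, 48.8 and 53.1 FPKM in 4h CM and 4h MDI, and 53.9 and 54.6 FPKM in 24h CM and 24h MDI. It rose by 1.23 ± 0.17 for Pro minus 0h (limma adjusted p 0.0136). Rpl7 had 1913 and 2074 FPKM in Pro-CM and Pro-MDI, against 1904 FPKM at 0h, and was not called. The share of Rpl7l1 in the pair was 3.73% in Pro-CM and 3.30% in Pro-MDI, against 1.56% at 0h.

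Rps2 rose by 1.43 ± 0.23 for Pro minus 0h (limma adjusted p 0.0178, range over alternatives 0.0151 to 0.0729), and was not called with no filter on low values. Rps27l, a paralog of Rps27 known as a p53 target (chr9:66946118-66949509), had 458 and 519 FPKM in the Pro-CM and Pro-MDI libraries, 307 FPKM at 0h, 289 and 338 FPKM in 4h CM and 4h MDI, and 328 and 361 FPKM in 24h CM and 24h MDI. The 2 Pro libraries were the highest, and the other 5 lay between 289 and 361 FPKM. The rise was 0.66 ± 0.16 for Pro minus 0h (limma adjusted p 0.0411, range over alternatives 0.0315 to 0.120). Its share of the Rps27 and Rps27l entries was 13.4% in Pro-CM and 14.0% in Pro-MDI, against 6.003% at 0h. Rps19bp1 rose by 0.91 ± 0.18 (limma adjusted p 0.0283, range 0.0244 to 0.0913) and Rpl30 by 0.79 ± 0.20 (limma adjusted p 0.0466, range 0.0398 to 0.130) in the same contrast, both at low levels.

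Lower in the Pro libraries were Rps28, with 3963 and 4372 FPKM in Pro-CM and Pro-MDI, against 5586 FPKM at 0h, and Rpl17, with 1194 and 1262 FPKM in Pro-CM and Pro-MDI, against 1518 FPKM at 0h. Neither passed the limma threshold. The SD over the 7 libraries of a member's log2 FPKM relative to the median member had a median of 0.13. It was 0.55 for Rps2, 0.45 for Rpl7l1, 0.42 for Rpl37a, 0.41 for Rps27l and for Rpl36al, and 0.63 for the merged entry Rps27,Rps27rt, which lay furthest out.

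**Figure D3:**
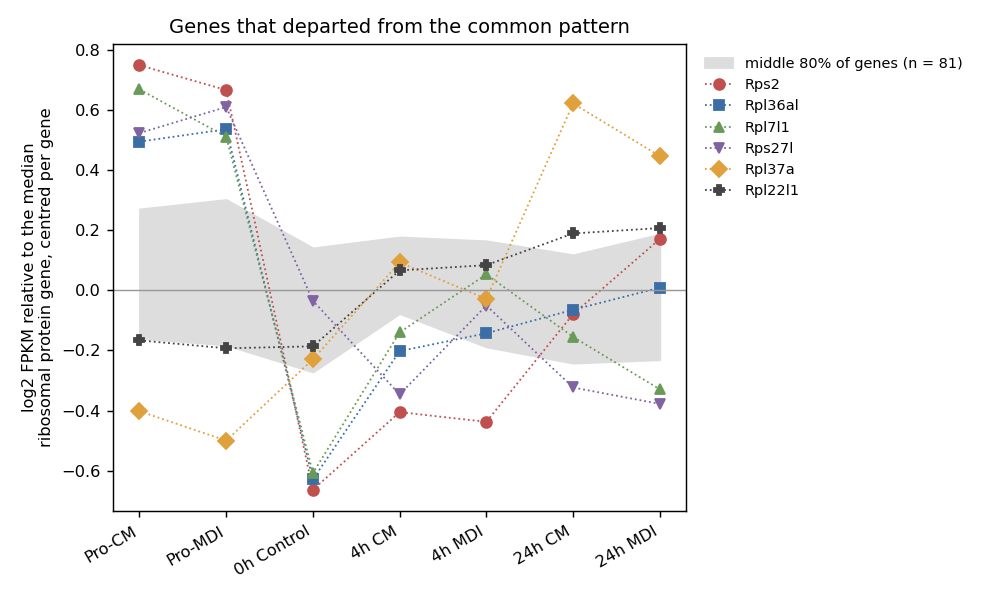
Points give the log2 FPKM of 6 members in each library relative to the median of the 81 members measured throughout, centred on each gene's own mean, and the grey band holds the middle 80% of members. Rps2, Rpl36al, Rpl7l1 and Rps27l lie above the band in both Pro libraries, Rpl37a lies above it in both 24h libraries, and Rps2, Rpl36al and Rpl7l1 lie below it at 0h.

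Selected members were set beside the sequence at their annotated transcription start, because the TOP motif is the feature that ribosomal protein mRNAs are known to share. Windows of 30 bases were read from RefSeq promoters of build GRCm38.p6, from 15 bases before to 15 bases after the annotated start, 5′ to 3′ on the transcript's strand. The motif searched was a C followed by at least 4 further pyrimidines (C or T), on the transcript strand only, anywhere in the window and with no overlap counted. Capitals mark the longest such run where there is one. The first 6 sequences belong to members that limma called higher in a contrast with 0h. The last 4 belong to members not called in such a contrast, though Rpl7a was called for 24h minus 4h. The lists overlap in the SD of log2 FPKM relative to the median member. It was 0.178 for Rpl22l1 in the first list, and 0.228 for Rpl7a and 0.175 for Rplp2 in the second.
Rps2: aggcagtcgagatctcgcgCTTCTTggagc
Rpl37a: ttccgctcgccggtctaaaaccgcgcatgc
Rpl36al: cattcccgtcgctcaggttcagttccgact
Rpl7l1: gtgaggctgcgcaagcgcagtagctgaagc
Rpl22l1: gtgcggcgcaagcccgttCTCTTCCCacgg
Rps27l: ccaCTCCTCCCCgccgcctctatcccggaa
Rpl7a: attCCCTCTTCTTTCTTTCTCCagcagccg
Rpl35: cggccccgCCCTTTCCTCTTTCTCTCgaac
Rps6: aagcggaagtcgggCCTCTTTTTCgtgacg
Rplp2: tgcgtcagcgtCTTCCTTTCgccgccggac
The windows lie at chr17:24720048-24720077, plus strand for Rps2, chr1:72711245-72711274, plus strand for Rpl37a, chr12:69184053-69184082, minus strand for Rpl36al, chr17:46782642-46782671, minus strand for Rpl7l1 and chr3:28805493-28805522, plus strand for Rpl22l1. Those of the others lie at chr9:66946071-66946100, plus strand for Rps27l, chr2:26910792-26910821, plus strand for Rpl7a, chr2:39005117-39005146, minus strand for Rpl35, chr4:86857353-86857382, minus strand for Rps6 and chr7:141447636-141447665, plus strand for Rplp2.

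Such a run was found in 37 of the 63 members whose symbol matched a RefSeq promoter (58.7%), against 9850 of 27025 promoters in the table (36.4%). A run of 8 bases or more was found in 22 of 63 members (34.9%), against 9.09% of all promoters. The longest runs, of 19 bases, were in Rpl7a and Rpl27a. The windows of Rpl37a, Rpl36al and Rpl7l1 held no run of 5 bases, and that of Rps2 held a run of 6 bases. A match is a string of letters and not a mapped start site, and the annotated start may lie some bases from the true one. The run marked for Rps27l lies before the annotated start, and its window ends before the Rps27l locus given above. Differences between libraries were close across classes of members: for 24h MDI minus 0h the median was 0.61 for the 22 members with a run of 8 or more, 0.64 for the 12 with a run of 5 to 7 and 0.64 for the 24 with no run of 5. For 24h CM minus 24h MDI these medians were -0.17, -0.26 and -0.18. They are given as a description, without a test.

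The last comparison set CM against MDI at each stage, the contrast for which the series was made. Ribosomal protein genes were slightly lower in CM in preconfluent cells, slightly higher in CM at 4h and lower in CM at 24h, and nearly all members lay on the same side each time. The median member differed by -0.09 for Pro-CM minus Pro-MDI, by 0.13 for 4h CM minus 4h MDI and by -0.21 for 24h CM minus 24h MDI, against -0.01, 0.03 and 0.01 for all genes. Below 0 were 69 of 82 members in the Pro pair (51.9% of all genes), above 0 were 76 of 82 at 4h (53.7% of all genes), and below 0 were 78 of 82 at 24h (48.7% of all genes). The interquartile range of members spanned only -0.14 to -0.05 in the Pro pair, 0.08 to 0.17 at 4h and -0.27 to -0.14 at 24h. Of 81 members, 63 were lower in CM in the Pro pair, higher at 4h and lower at 24h. The share of all genes with this order was not computed, so the count is not read as a result about members.

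The directions were the same in TPM, with medians of -0.09, 0.20 and -0.09 for the Pro, 4h and 24h pairs. TPM moved the median of all genes at 24h to 0.12. This rescaling shifts all genes of a pair by nearly the same amount. The distance between members and all genes, near 0.21, could therefore hardly change. The 75 mitochondrial ribosomal protein genes had medians of -0.12, 0.04 and -0.06, the last of which turned to 0.06 in TPM. Genes with at least 100 FPKM had medians of -0.04, -0.06 and -0.11, and those with at least 100 TPM had -0.03, 0.0043 and 0.05 in TPM, so that the sign of the 4h and 24h pairs turned. As each stage has 1 library per medium, whether these differences exceed the spread between cultures was not tested.

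Differences of single members were small. Past 2-fold was only Rpl26, listed at 0 in Pro-MDI and not in Pro-CM (1 of 82, where 2.23% of all genes were higher) and listed at 0 in 24h CM (1 of 82, where 1.49% of all genes were lower). None passed at 4h, where 1.1% of all genes were higher and 2.95% lower in CM. None was 2-fold lower in Pro-CM (1.23% of all genes) or higher in 24h CM (1.92%). A difference of at least 0.5 was reached by 2 of 82 members in the Pro pair (12.7% of all genes), 2 of 82 at 4h (17.2%) and 1 of 82 at 24h (14%). Rps2 had 4276 FPKM in 24h CM and 5816 FPKM in 24h MDI, the largest distance after Rpl26. Rpl8 had 2043 FPKM in 24h CM and 2638 FPKM in 24h MDI. Rpl23a and Rpl27a were among the members highest in CM against MDI at this stage, with Rpl23a at 4972 FPKM in 24h CM and 4631 FPKM in 24h MDI. At 4h the members highest in CM after the Rpl34 entry were Rpl3 and Rpl18, with Rpl18 at 1491 FPKM in 4h CM and 1221 FPKM in 4h MDI. In the Pro pair, Rpl19 was lowest in CM, at 2192 FPKM in Pro-CM and 2571 FPKM in Pro-MDI.

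For the medium effect over the 3 stages limma called 0 of 82 members, and 0 of all 11158 genes tested (0% in each direction). No member had an unadjusted p under 0.05, where 145 of all genes did. The authors' deposited tables, which compare 2 libraries without replicates, mark no member as significant in any of their 7 comparisons, where between 0 and 24 of all genes are marked in each. The smallest Cuffdiff p in the authors' deposited tables among members was 0.01435, for Rpl26 in 24h CM against 24h MDI. Adipocyte markers also differed in the 24h pair: the summed FPKM of the 5 markers was 453 in 24h CM and 76.5 in 24h MDI, most of it Lpl, and between 60.3 and 174 in the other 5 libraries. Their part in the lower ribosomal protein levels of 24h CM was not tested.

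**Figure D4:**
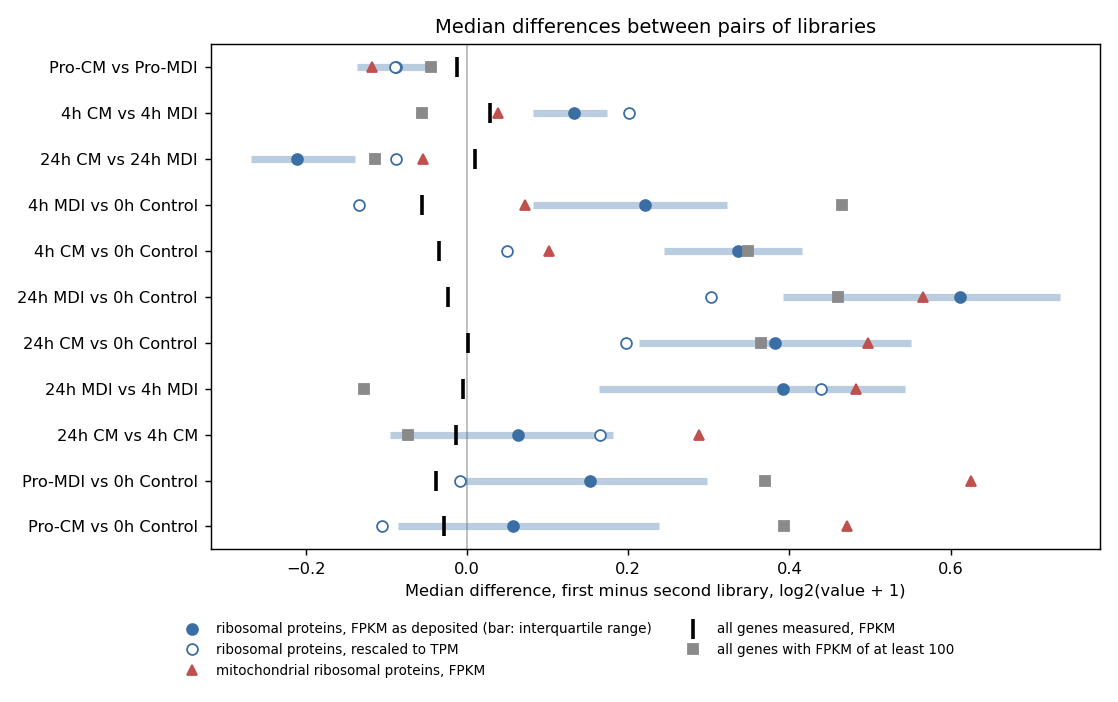
Rows are the 11 pairs of libraries compared, the first named minus the second. Filled circles are medians of ribosomal protein genes in log2(FPKM + 1) with a bar for the interquartile range, open circles the same after rescaling to TPM, triangles the 75 mitochondrial ribosomal protein genes, ticks all genes measured and squares genes with at least 100 FPKM. The group lies below 0 for CM against MDI in Pro cells and at 24h and above 0 at 4h, and the open circles change side in 4h MDI and in both Pro libraries against 0h.

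The entry Rps27,Rps27rt had the largest difference between media at 4h, and in the Pro pair the largest after Rpl26. Rps27 is a small-subunit protein with a zinc finger. The entry had 1134 and 724 FPKM in the Pro-CM and Pro-MDI libraries, 2024 FPKM at 0h, 1402 and 2687 FPKM in 4h CM and 4h MDI, and 1279 and 1639 FPKM in 24h CM and 24h MDI. Taken alone, its CM minus MDI difference on the log2 scale was 0.65 in the Pro pair, -0.94 at 4h and -0.36 at 24h. Rps27rt, at the same locus, had 1836 and 2471 FPKM in the Pro-CM and Pro-MDI libraries, 2788 FPKM at 0h, 4064 and 2685 FPKM in 4h CM and 4h MDI, and 3152 and 2966 FPKM in 24h CM and 24h MDI, the opposite order of media in each of the 3 pairs. Summed, the entries at the locus had 2969 and 3195 FPKM in the Pro-CM and Pro-MDI libraries, 4812 FPKM at 0h, 5466 and 5372 FPKM in 4h CM and 4h MDI, and 4431 and 4606 FPKM in 24h CM and 24h MDI, and the differences for CM minus MDI became -0.11, 0.02 and -0.06 in the Pro, 4h and 24h pairs. The Rpl34 entries, summed in the same way, gave -0.11, 0.06 and -0.11.

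Genes that work with ribosomal proteins were read from lists chosen for this purpose. Chaperones of ribosomal proteins and late assembly factors were called higher by limma in 7 of 15 for 4h minus 0h, in 4 of 15 for 24h minus 0h and in 8 of 15 for Pro minus 0h, with none lower in these contrasts. The background was 9.05%, 5.42% and 14% of all genes. Rrs1, whose yeast counterpart brings the 5S rRNA with Rpl5 and Rpl11 into the large subunit, had 75.2 and 60.5 FPKM in the Pro-CM and Pro-MDI libraries, 11.8 FPKM at 0h, 65.3 and 83.7 FPKM in 4h CM and 4h MDI, and 32.4 and 28.3 FPKM in 24h CM and 24h MDI. Grwd1, whose yeast counterpart is the chaperone of Rpl3, had 44.8 and 38.2 FPKM in the Pro-CM and Pro-MDI libraries, 7.85 FPKM at 0h, 30.9 and 36.7 FPKM in 4h CM and 4h MDI, and 19.9 and 22.2 FPKM in 24h CM and 24h MDI. Both were lowest at 0h and higher at 4h than at 24h, whereas the median ribosomal protein gene was higher at 24h than at 4h in both media. The list's medians were 0.80, 0.32 and 1.04 in these contrasts, against -0.02, 0.01 and -0.01 for all genes.

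Translation initiation factors were called higher in 12 of 29 for 4h minus 0h, in 5 of 29 for 24h minus 0h and in 13 of 29 for Pro minus 0h, with 1 lower (Eif3e, Pro minus 0h). Eif4a1, the helicase that unwinds the mRNA leader, had 728 and 644 FPKM in the Pro-CM and Pro-MDI libraries, 212 FPKM at 0h, 692 and 859 FPKM in 4h CM and 4h MDI, and 542 and 553 FPKM in 24h CM and 24h MDI. Eif5a, which helps ribosomes through hard peptide bonds, had 1016 and 1051 FPKM in the Pro-CM and Pro-MDI libraries, 241 FPKM at 0h, 522 and 629 FPKM in 4h CM and 4h MDI, and 578 and 690.2 FPKM in 24h CM and 24h MDI. Both exceeded the 0h level in all 6 treated libraries. Elongation factors and other genes with TOP mRNAs were called higher in 1 of 15 at 4h, 1 of 15 at 24h and 5 of 15 in Pro against 0h, Eef1d being called in each. The background of genes called higher was again 9.05%, 5.42% and 14%, so that the counts of this list at 4h and 24h were near it.

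Of 21 genes of the mTORC1 pathway and of TOP mRNA control, limma called 3 higher and 2 lower for 4h minus 0h, 1 higher and 0 lower for 24h minus 0h, and 2 higher and 4 lower for Pro minus 0h. Of all genes, 9.05% were called higher and 7.61% lower at 4h, 5.42% and 5.55% at 24h, and 14% and 13.1% in Pro, so the counts of this list were close to the background. Ddit4, an inhibitor of mTORC1, had 97.2 and 55.6 FPKM in the Pro-CM and Pro-MDI libraries, 25.1 FPKM at 0h, 126 and 93.1 FPKM in 4h CM and 4h MDI, and 134 and 87.02 FPKM in 24h CM and 24h MDI, and was called higher in the 3 contrasts with 0h. Sesn3, another inhibitor, had 8.53 and 10.2 FPKM in the Pro-CM and Pro-MDI libraries, 64.8 FPKM at 0h, 11.3 and 8.40 FPKM in 4h CM and 4h MDI, and 31.9 and 25.3 FPKM in 24h CM and 24h MDI, and was called lower at 4h and in Pro. Larp1, which binds TOP mRNAs, was called higher at 4h and in Pro. Of 8 genes of p53 and its targets, limma called 0 higher and 1 lower at 4h, 0 higher and 1 lower at 24h, and 1 higher (Trp53) and 3 lower (Bbc3, Mdm4 and Zmat3) in Pro against 0h, beside the same backgrounds. For 24h minus 4h, limma called 2 chaperones lower (Nmd3 and Rrs1) and 0 higher, 2 initiation factors higher and 2 lower, and 3 genes of the mTORC1 list higher and 3 lower, against 10.9% of all genes higher and 10.4% lower. None of the 5 lists held a gene called for the medium effect. The medians of chaperones and of initiation factors in the pairs with 0h kept their sign under the 4 scalings compared.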

How the data were processed

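RNA was extracted with Trizol and sequenced on Illumina libraries, per the labels' protocols. Reads were processed with TopHat2 2.0.13 and Cuffdiff 2.2.0, per the submitters' processing notes, and no source used here gives the genome build, read length or strandedness. The authors deposited FPKM of 23996 genes in 7 tables, each comparing a pair of libraries, per the file headers. The authors also deposited a Cuffdiff p-value and q-value per gene and pair, per the file headers, from libraries without replicates. Values of a library were identical between tables to 1.1e-16, so the 7 libraries were joined into 1 matrix. The 1 empty line in each table was left out.

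Loci are those of the tables with 1 added to the start. They overlapped the RefSeq gene with the same symbol in GRCm38.p6 for 22198 of 22432 symbols (99.0%) and for 83 of 84 members matched.

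Pairs of libraries were compared as differences in log2(FPKM + 1), with a pseudocount of 1, over genes with FPKM of 1 or more in 1 of the pair, and called at 2-fold, without a test. limma 3.58.1 with an intensity trend was fitted to genes with FPKM of 1 or more in 2 libraries, for the medium effect on the 6 treated libraries with stage as block, and for time contrasts on all 7. The fit was tested on simulated data. Depth is unknown, and no counting interval is given. TPM was obtained by scaling each library's FPKM to a common sum.

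Members and gene lists were chosen with earlier results of these data known. Members named are the 5 highest and lowest by mean, the extremes of each pair, those past 2-fold or at 0, the smallest adjusted p per limma contrast, and fixed members with known roles or paralogs; of each list up to 4 genes with the largest mean difference are named. Alternatives were pseudocounts of 0.1 and 5, no filter, FPKM of at least 50, 3 other scalings, a threshold of 0.1, limma with no trend, and fits that leave out the libraries of a stage. The work used R 4.3.3 and Python 3.11.15 with pandas 2.3.3, numpy 2.4.6 and matplotlib 3.10.9.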

Additional observations from a re-analysis of the deposited data

Results flagged for a closer look

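The median CM minus MDI difference of ribosomal protein genes had opposite signs at different stages. It was -0.09 in the Pro pair and 0.13 at 4h, a distance of -0.22 (Pro minus 4h, log2), and 0.13 at 4h and -0.21 at 24h, a distance of 0.34 (4h minus 24h). The difference between stages was not tested, because each stage has 1 library per medium.

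The entry Rps27,Rps27rt differed between CM and MDI by 0.65 in the Pro pair, by -0.94 at 4h and by -0.36 at 24h. The distances were 1.58 for Pro minus 4h and 1.00 for Pro minus 24h, and they were not tested. Summed with Rps27rt at the same locus, the differences were -0.11, 0.02 and -0.06.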

How the results depend on the processing

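The median difference of members kept its sign and stayed within the spread between members in 80 of 88 recomputed values. Other pseudocounts and filters could hardly move the median of genes this abundant, so much of that count was fixed in advance. The spread was the SD between members, a wide limit. It was 0.40 in 24h CM against 24h MDI, where Rpl26 lay at -3.69. Rescaling to TPM reversed 4h MDI against 0h (-0.13), Pro-MDI against 0h (-0.0089) and Pro-CM against 0h (-0.11), and rescaling to the protein-coding sum gave -0.14, -0.022 and -0.12 for these pairs. These scalings also moved 4h CM against 0h to 0.049 and 0.030. They lower every gene against 0h, since the 0h library has the smallest FPKM sum. The factors of the median of ratios ran from 0.991 in 24h MDI to 1.05 at 0h, so that scaling lay close to FPKM as deposited.

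The number of members past the size rule moved in 13 of 44 recomputed counts. With a difference of at least 0.5 in place of 1 it was 2 in Pro-CM against Pro-MDI, 2 in 4h CM against 4h MDI, 6 and 14 in 4h MDI and 4h CM against 0h, 51 and 29 in 24h MDI and 24h CM against 0h, 28 and 4 in 24h against 4h in MDI and CM, and 13 and 12 in Pro-MDI and Pro-CM against 0h. In 24h MDI against 0h it was 2 in TPM and 2 with the protein-coding sum, and in 24h CM against 0h 3 with a median of ratios. Without the 5 highest members the share of protein-coding FPKM was 22.8% in Pro-CM, 24.4% in Pro-MDI, 24.0% at 0h, 24.3% and 21.4% in 4h CM and 4h MDI, and 27.9% and 29.2% in 24h CM and 24h MDI, with the 24h libraries still highest. The alternative of leaving out genes of the mitochondrial genome was void, since genes so named summed to 0 FPKM.

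limma counts of called members differed from the reported ones in 27 of 50 refits, by over 1.5 times in 19. For 4h minus 0h, 1 was called with a median of ratios and 4 at a threshold of 0.1. For 24h minus 0h, 7 were called with a pseudocount of 5, 1 with no filter, 2 in TPM, 10 with a median of ratios, 2 with the protein-coding sum, 20 at a threshold of 0.1, 0 without the Pro libraries and 10 without the 4h libraries. For 24h minus 4h, 0 were called with no filter, 4 in TPM, 4 with a median of ratios, 4 with the protein-coding sum, 1 without trend, 10 at a threshold of 0.1 and 0 without the Pro libraries. For Pro minus 0h, 11 were called at a threshold of 0.1, 3 without the 24h libraries, 4 with no filter, in TPM or with the protein-coding sum (Rpl30 lost in each), 5 without trend, and 9 with a median of ratios or without the 4h libraries. The share of all genes called in each refit is not given here, so these shifts are not read as a result about members. The cause of these shifts was not tested. 2 choices were added after seeing the data: leaving out pseudogene, merged, near-zero and non-ribosomal entries, and the medium effect without each stage pair. CM and MDI libraries were paired by stage in the fit of the medium effect, which has stage as a block. A pairing by replicate number could not be fitted, since each condition has 1 library. FPKM carry no counts, so the precision of low members such as Rpl26 is unknown.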
